A study of Sus scrofa with 36 samples.

Results

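The cell cycle and DNA replication genes described here are a set of 59 pig genes for cyclins and their kinases, the replication machinery, nucleotide supply, the mitotic spindle and its checkpoint, chromosome structure and the transcription factors that drive them. For each gene the array's probe was found by the gene name in the scanner files, or by its RefSeq transcript, and the brightest probe stood for the gene. Of the 59 genes, 14 had no probe by this rule (CCNA2, CCNE2, CDC25B, CDT1, MCM4, MCM5, MCM7, GINS1, TYMS, BUB1B, MAD2L1, HMMR, CENPA and NCAPG). Another 4 had a probe on the array but no row in the authors' table, and these were well above background on 12 (TTK), 8 (KIF20A), 1 (CENPE) and 1 (FOXM1) of the 36 arrays. The remaining 41 genes were used, and all of them passed the filter on dim probes. The files name some probes only by a gene number, and these were not used: 1 of CENPA differed between HS and TN by -0.17 on the log2 scale (limma adjusted p = 0.122), and 1 of RACGAP1, brighter than the probe used, by -0.21 (limma adjusted p = 0.141). The 41 genes compare with 10062 named genes and 45943 probes that were tested in all.

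The adrenal glands came from 36 growing castrated male pigs, 6 in each of 6 groups, with 1 single-colour array per pig. The breeds were Creole, Large White and their cross (F1 in the labels), each at thermoneutrality (TN) or under heat stress (HS). TN pigs were kept at 24 °C and slaughtered before the rise in temperature. HS pigs were slaughtered after 5 days at 32 °C according to the growth protocol, while the temperature label of the same pigs reads 30 °C. The methods text gives an exposure shorter by a day for some of them, and the labels do not say which. The HS pigs were thus slaughtered later than the TN pigs, and day of slaughter, age and temperature cannot be told apart. The study also reports a lower feed intake under heat, which cannot be told apart from temperature either. The study placed littermates in both temperature groups, while the pigs of a pen shared a temperature. Its model held random effects of pen and day of slaughter within temperature. Litters, pens and slaughter days are not in the labels. The p-values thus treat littermates, pen-mates and pigs slaughtered on the same day as independent, and may be too small. The arrays lay on 5 slides, each split evenly between the temperatures. Some markers of cortex (STAR, CYP11A1, CYP17A1) and medulla (CHGA, PNMT) had bright probes in the tissue. Others of cortex (MC2R) and medulla (DBH, SLC18A1) had much dimmer ones.

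A dividing cell copies its DNA in S phase and separates the copies in mitosis. Licensing proteins load the MCM helicase on replication origins, CDK2 with cyclin E starts synthesis, and CDK1 with cyclin B starts mitosis, after which the anaphase-promoting complex destroys cyclin B. Many mitotic genes are transcribed mainly late in the cycle and are used as markers of dividing cells. The adult adrenal cortex renews itself slowly from cells near its capsule. In whole tissue, fewer dividing cells and less RNA per dividing cell cannot be told apart.

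The probes are oligonucleotides of 60 bases. Those printed here show examples from several roles, each with an open reading frame in the forward direction, which 35 of the 41 used probes have. CDK1, TOP2A, CENPF and CDC20 stand for the mitotic genes, PCNA for the replication fork and MKI67 for a gene whose name is shared by probes of another gene. Capitals mark bases that another probe of the same gene also holds, which for CDC20 is the whole sequence.
CDK1: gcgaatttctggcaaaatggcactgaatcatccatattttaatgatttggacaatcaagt
TOP2A: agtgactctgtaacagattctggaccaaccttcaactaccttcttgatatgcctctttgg
CENPF: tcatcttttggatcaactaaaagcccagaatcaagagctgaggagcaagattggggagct
CDC20: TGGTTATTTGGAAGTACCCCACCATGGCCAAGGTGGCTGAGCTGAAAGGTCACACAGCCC
PCNA: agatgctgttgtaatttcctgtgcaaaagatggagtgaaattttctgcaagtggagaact
MKI67: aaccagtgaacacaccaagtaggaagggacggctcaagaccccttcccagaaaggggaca

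The difference between HS and TN pigs was the main comparison, with 18 pigs against 18. Of the 41 genes, 36 were lower in HS pigs, and the median difference was -0.13 on the log2 scale, against 0.00 over all probes. At an FDR of 0.05 over all probes, 3 of the 41 genes passed (7.32%), all lower in HS pigs, where 0.886% of all probes passed in either direction and 0.496% were lower. At an unadjusted p under 0.05, 21 of the 41 genes were lower and 0 were higher, against 6.99% and 6.41% of all probes. A value below 0 was found for 50% of all probes. The tests were those of limma with breed as a covariate and Benjamini-Hochberg adjustment. TN and HS pigs overlapped for each of the 41 genes.

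RRM2, the small subunit of ribonucleotide reductase, which makes the building blocks of DNA, had the largest fall (chromosome 3 of Sscrofa11.1, 126357198 to 126367145). In Creole pigs its normalized log2 intensity ran from 8.29 to 9.32 (median 8.94) at TN and from 8.04 to 8.94 (median 8.42) at HS. In the cross it ran from 8.42 to 9.52 (median 8.83) at TN and from 8.12 to 8.83 (median 8.38) at HS. In Large White pigs it ran from 8.71 to 9.24 (median 8.92) at TN and from 8.32 to 8.91 (median 8.62) at HS. The HS median was the lower one in each breed, the ranges overlapped, and 17 of 18 HS pigs fell short of their breed's mean at TN. Its means were 8.90 ± 0.33 at TN and 8.49 ± 0.27 at HS (SD, n = 18 each), a log2 difference of -0.41 (SE 0.10, limma adjusted p = 0.0317), or 24.9% less signal. RRM1, the large subunit of the same enzyme, stood at 5.71 ± 0.16 and 5.73 ± 0.18 (SD, n = 18 each) and was well above background on 28 of the 36 arrays.

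CDK1, the kinase that starts mitosis, is on chromosome 14 (64233945 to 64255290). Its level in Creole pigs ran from 8.48 to 9.45 (median 8.94) at TN and from 8.08 to 8.95 (median 8.65) at HS. In the cross it ran from 8.40 to 9.41 (median 8.86) and from 7.96 to 8.76 (median 8.42), and in Large White pigs from 8.61 to 9.16 (median 8.93) and from 8.32 to 8.95 (median 8.64). Again 17 of 18 HS pigs were under their breed's TN mean. CDK1 fell by 0.39 on the log2 scale (SE 0.09, limma adjusted p = 0.0353), from 8.91 ± 0.29 to 8.52 ± 0.28 (SD, n = 18 each). A second CDK1 probe with another sequence fell by 0.40 (adjusted p = 0.0192 from limma).

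TPX2, which builds the spindle and activates aurora A, lies on chromosome 17 (35431271 to 35484814). In Creole pigs its level ran from 9.18 to 9.91 (median 9.62) at TN and from 8.83 to 9.21 (median 9.12) at HS, so that the upper end of HS narrowly overlapped the lower end of TN. In the cross it ran from 9.13 to 9.82 (median 9.38) and from 8.52 to 9.45 (median 9.17), and in Large White pigs from 9.18 to 9.53 (median 9.44) and from 8.93 to 9.58 (median 9.26). TPX2 fell by 0.33 (SE 0.08, limma adjusted p = 0.0353), and 15 of 18 HS pigs were under their breed's TN mean. UBE2C, the ubiquitin-conjugating enzyme of the anaphase-promoting complex (chromosome 17, 48018403 to 48021542), stood just outside the threshold. Its mean was 10.05 ± 0.36 in TN pigs and 9.66 ± 0.29 in HS pigs (SD, n = 18 each), a difference of -0.40 (SE 0.10, limma adjusted p = 0.0535). All 18 HS pigs were under their breed's TN mean for UBE2C.

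**Figure D1:**
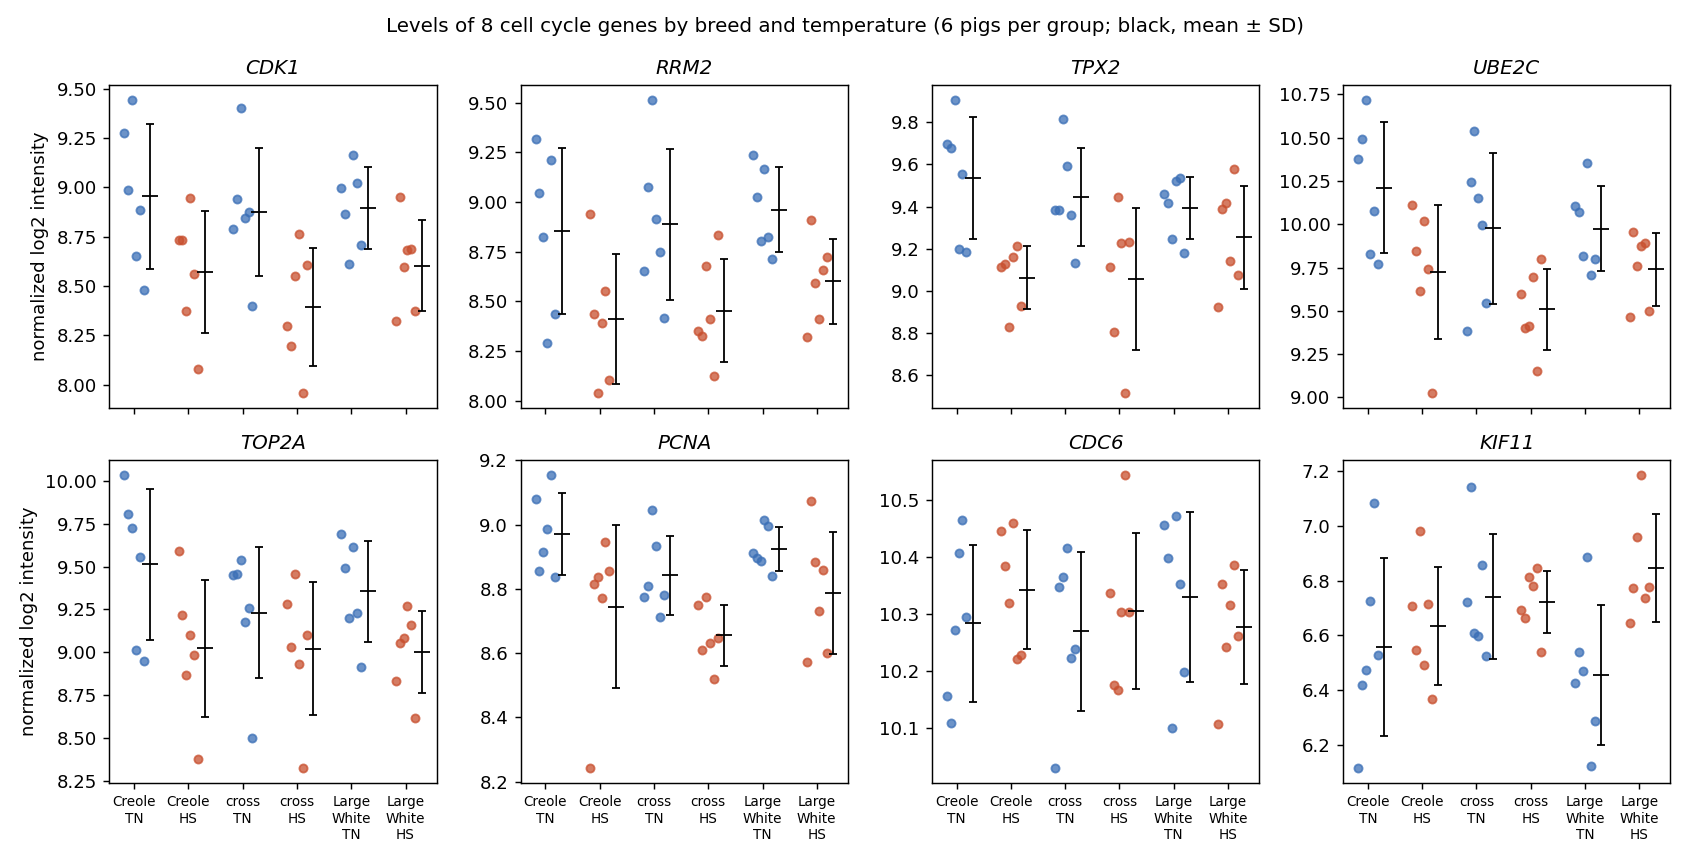
Normalized log2 intensity (y axis of each panel, on its own range that does not start at 0) of 8 genes in the 6 groups, TN in blue and HS in red, 1 point per pig, with the mean and SD in black. The HS points of CDK1, RRM2, TPX2 and UBE2C sit lower than the TN points with overlap, those of CDC6 sit level with them, and those of KIF11 sit higher in Large White pigs.

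The 3 calls depended on which arrays were used. Without the arrays of slide 1, 2, 3 or 4, 0 of the 41 genes passed by limma (169, 33, 34 and 54 of all probes did), and without slide 5 there were 5 (CDK1, RRM2, TPX2, PBK and BIRC5) and 323 of all probes. With the slide as a fixed block 7 genes passed (TOP2A, CENPF, PCNA and UBE2C beside the 3), and 1.94% of all probes. With the slide as a random block 5 passed (PCNA and UBE2C beside the 3), and 1.74% of all probes. With the processed signal scaled to its 75th percentile, which changes both the signal and the scaling, only RRM2 passed, and 0.694% of all probes. Within the slides, after centring each breed, the difference of RRM2 was -0.35, -0.53, -0.39, -0.75 and -0.02 on slides 1 to 5, and that of CDK1 was -0.37, -0.44, -0.38, -0.50 and -0.24. TPX2 gave -0.28, -0.41, -0.29, -0.54 and -0.11, and UBE2C -0.24, -0.43, -0.50, -0.41 and -0.32. The sign was the same on every slide for these 4 genes, and the smallest value of RRM2, CDK1 and TPX2 was on slide 5. These genes were chosen for large differences over the same arrays, so the shared sign is no separate support. Slide 1 held 2 TN and 2 HS arrays, and each other slide 4 and 4.

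Single pigs moved the calls as well, and the adjusted p stood close to the threshold. RRM2 did not pass in 8 of the 36 fits that left out 1 pig (limma adjusted p from 0.0506 to 0.0552), CDK1 in 10 (0.0505 to 0.0628) and TPX2 in 11 (0.0503 to 0.0661). No member passed without Creole HS replicate 3, cross HS replicates 2 or 5, or cross TN replicates 2 or 3. Only 1 passed without any of Creole TN replicates 1, 3 or 5, cross TN replicate 4, Large White HS replicates 4 or 6, or Large White TN replicate 1. As many as 5 passed without Large White HS replicate 2, 6 without Large White HS replicate 5 and 7 without cross TN replicate 6. Without Creole HS replicate 6, 3 of the 41 genes and 1.58% of all probes passed, against 0.886% of all probes with every pig. For the other fits the share of all probes is not given here, so their counts do not set the 41 genes apart from the array. The size of the difference stayed between -0.40 and -0.37 for RRM2, between -0.38 and -0.35 for CDK1 and between -0.34 and -0.30 for TPX2 in the fits that lost the call.

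Genes with more than 1 tested probe gave a check of each value, since 15 of the 41 had 2 to 6. For 14 of these, every probe was lower in HS pigs, and for UBE2T both were higher, by 0.00 and 0.02. In 3 cases a pair of probes holds the same 60 bases, so such a pair repeats a measurement on the same RNA and adds no independent evidence. The UBE2T pair shares 58 bases and is no independent check either, and 2 of the AURKA probes share 27. The CDC20 pair gave -0.27 and -0.24, the BIRC5 pair -0.24 and -0.24 and the MELK pair -0.14 and -0.14. TOP2A, the topoisomerase that untangles sister DNA strands, had a difference of -0.35 by its brighter probe (limma adjusted p = 0.128) and fell by 0.41 by its dimmer one (limma adjusted p = 0.0170). SMC4, a core subunit of condensin, had 6 probes between -0.16 and -0.001, of which 1 passed (-0.16, adjusted p = 0.0117 from limma). Counting a gene when any of its probes passed, a choice made after the values were seen, gave 5 genes. RRM2, TPX2, UBE2C and KIF11 had 1 tested probe each, so of the 3 genes past the FDR only CDK1 had a second probe as a check.

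All 6 cyclins, kinases and phosphatases of the cell cycle lay below 0, 3 of them at an unadjusted p under 0.05, and CDK1 alone passed the FDR. Cyclin B1 (CCNB1), the partner of CDK1, stood at 8.98 ± 0.25 in TN and 8.69 ± 0.27 in HS pigs (SD, n = 18 each), a difference of -0.29 (SE 0.08, limma adjusted p = 0.0860). Cyclin B2 (CCNB2) differed by -0.18 and the phosphatase CDC25C by -0.12. The early members of the same role were closer to 0, with -0.06 for cyclin E1 (CCNE1) and -0.05 for CDK2. The 3 genes of the spindle checkpoint and the anaphase-promoting complex were UBE2C, the checkpoint kinase BUB1 (-0.30, limma adjusted p = 0.0860) and the activator of the complex, CDC20 (-0.27, limma adjusted p = 0.0840). All 3 had an unadjusted p under 0.05, and 17 of 18 HS pigs were under their breed's TN mean for CDC20 and 16 for BUB1.

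Among the 6 mitotic kinases, PBK, a MAPKK-like kinase, had the largest difference (-0.36, SE 0.10, limma adjusted p = 0.0828), and its 4 probes ranged from -0.36 to -0.23. AURKA, of the spindle poles, differed by -0.14, MELK by -0.14, PLK1 by -0.13 and AURKB, of the chromosomal passenger complex, by -0.10. PLK4, which doubles the centrioles, was the only one above 0 (0.03). None of the 6 passed the FDR.

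Of the 8 spindle and cytokinesis genes, 7 were lower and 4 of those had an unadjusted p under 0.05. After TPX2 came KIF23, a kinesin of the central spindle (-0.28, limma adjusted p = 0.0804), NUSAP1 (-0.16) and RACGAP1 (-0.16), the partner of KIF23. PRC1 (-0.09), ECT2 (-0.08) and KIF2C (-0.07) were nearer 0, and PRC1 and KIF2C were well above background on 27 and 26 arrays. KIF11, the kinesin that pushes the spindle poles apart, ran against the rest with 6.58 ± 0.28 in TN and 6.73 ± 0.19 in HS pigs (SD, n = 18 each), a difference of 0.15 (SE 0.08, limma adjusted p = 0.415).

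Both centromere genes were lower at an unadjusted p under 0.05, namely CENPF (-0.31, limma adjusted p = 0.140) and survivin, BIRC5 (-0.24, limma adjusted p = 0.0790). Of the condensin subunits, NCAPH differed by -0.15, SMC4 by -0.09 and SMC2 by -0.01. Both of the E2F factors were slightly lower, with -0.13 for the activator E2F1 and -0.07 for the repressor E2F8, which was well above background on 35 arrays. UBE2T, of the Fanconi anaemia pathway for DNA crosslinks, differed by 0.00 (SE 0.04).

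MKI67, the usual marker of proliferation, needed care. The files give this name to 3 probes, and 2 of them carry a RefSeq transcript that belongs to NIFK, a nucleolar protein that binds Ki-67 and has MKI67 among its synonyms. These 2 had mean levels of 12.26 and 9.16, and differed by -0.11 (limma adjusted p = 0.300) and -0.15 (limma adjusted p = 0.228). The remaining probe, used for MKI67 here, ran from 5.83 to 6.18 in TN and from 5.75 to 6.39 in HS pigs, and differed by -0.03 (SE 0.05, limma adjusted p = 0.835). With the brighter NIFK probe in place of MKI67 the count past the FDR was 3 as before.

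**Figure D2:**
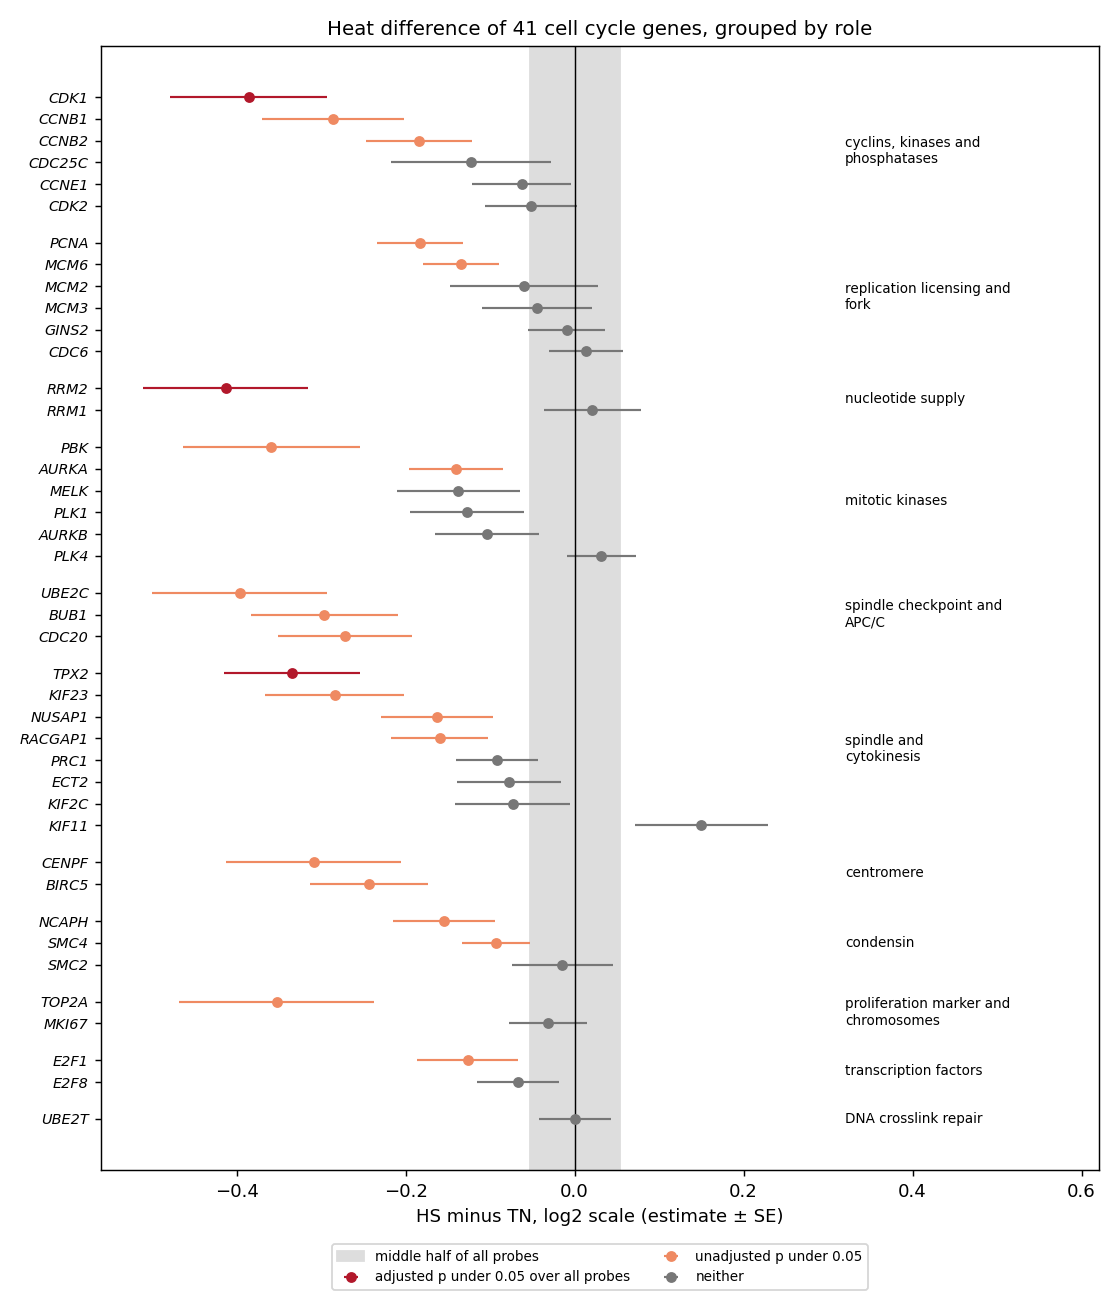
Difference between HS and TN pigs on the log2 scale (x axis, estimate with SE) for the 41 genes (y axis), grouped by role, with the span from the lower to the upper quartile of all probes in grey (-0.05 to 0.05). Dark red marks the 3 genes past the FDR, orange an unadjusted p under 0.05 and grey points neither. RRM2 lies lowest at -0.41 and KIF11 highest at 0.15, and the licensing and fork genes CDC6, GINS2, MCM2 and MCM3 lie between -0.06 and 0.01.

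The 6 genes of licensing and the fork ranged from -0.18 to 0.01. PCNA, the sliding clamp of the DNA polymerases, was 8.91 ± 0.12 in TN and 8.73 ± 0.19 in HS pigs (SD, n = 18 each), a difference of -0.18 (SE 0.05, limma adjusted p = 0.0700), with 17 of 18 HS pigs under their breed's TN mean. MCM6, a subunit of the replicative helicase, differed by -0.13 (SE 0.05, limma adjusted p = 0.143). The other helicase subunits with a probe were nearer 0, MCM2 at -0.06 (SE 0.09) and MCM3 at -0.04 (SE 0.06). GINS2, of the GINS complex, differed by -0.01 (SE 0.05), and CDC6, which loads the helicase, by 0.01 (SE 0.04). Over the 6 genes of licensing and the fork, the median was -0.05 and 2 were lower at an unadjusted p under 0.05. Whether the replication and the mitotic genes differ from each other was not tested.

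Other genes of the same pathways were taken from 4 lists. Of 33 other mitosis genes with a probe, 26 were lower and 7 higher, with a median of -0.08, 13 lower and 1 higher at an unadjusted p under 0.05. CKS2, a small subunit of cyclin-dependent kinases, passed the FDR (-0.28, SE 0.06, limma adjusted p = 0.0213) and was the only gene of the 4 other cell cycle lists to do so. Of 29 other DNA replication genes, 17 were lower and 12 higher (median -0.03), with 4 lower and 3 higher at an unadjusted p under 0.05. The 18 G1 cyclins, kinases and RB family genes had a median of -0.03, and the 17 cell cycle inhibitors and brakes a median of 0.01. Neither of these lists held a gene past the FDR, and each held 2 lower and 2 higher at an unadjusted p under 0.05. Over all probes, 6.99% were lower and 6.41% higher at that threshold, and 50% lay below 0. Cyclin D3 (CCND3), a G1 cyclin, differed by -0.34 (limma adjusted p = 0.0672). Of the inhibitors and brakes, the 2 lower at an unadjusted p under 0.05 were KLF4 (-0.27, limma adjusted p = 0.106) and TOB1 (-0.18, limma adjusted p = 0.218). The 2 higher were CCNG2 (0.17, limma adjusted p = 0.111) and FZR1 (0.13, limma adjusted p = 0.352). The value of p21 (CDKN1A) was 0.17 (limma adjusted p = 0.488).

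Markers of other cells in the gland were compared in the same way. All 6 markers of the medulla were lower in HS pigs (median -0.18, 1 at an unadjusted p under 0.05, PNMT at -0.35), and their median per pig, set against the TN mean of the breed, ran from -0.43 to 0.36 in TN and from -0.95 to 0.24 in HS pigs. Of 9 myeloid markers, 8 were lower (median -0.16), 5 of them at an unadjusted p under 0.05, and the median per pig ran from -0.33 to 0.45 in TN and from -0.63 to 0.34 in HS pigs. None of these markers passed the FDR. Of 11 lymphocyte markers 8 were higher (median 0.04) and none had an unadjusted p under 0.05, and 3 of 6 endothelial markers were higher (median 0.00). NR5A1, a factor of cortex identity, fell by 0.25 (limma adjusted p = 0.0254), and the 9 cortex markers had a median of -0.05. Of the other lists, all 4 red cell markers were lower (median -0.11), as were 4 of 7 fibroblast markers (median -0.02) and 4 of 6 adipocyte markers (median -0.04). The part of these cells in the differences above was not tested. Over all probes, 50% lay below 0, and 6.99% were lower and 6.41% higher at an unadjusted p under 0.05.

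**Figure D3:**
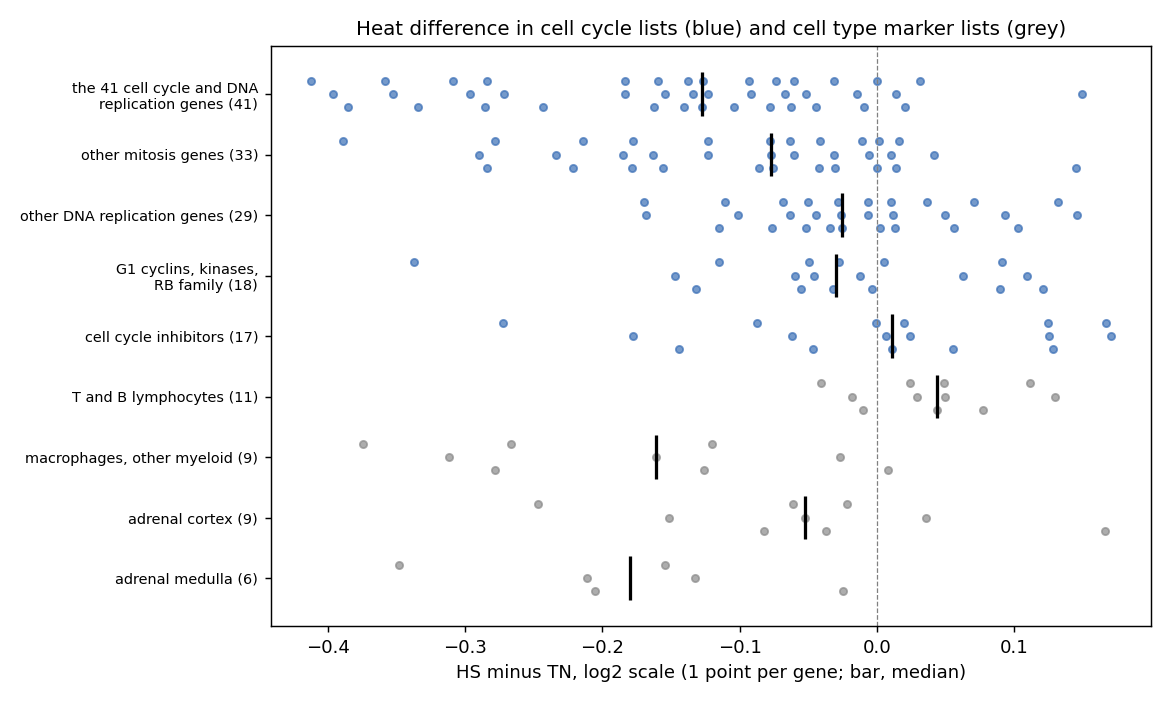
Difference between HS and TN pigs on the log2 scale (x axis), 1 point per gene with the median as a bar, for the 41 genes and the other cell cycle lists in blue and 4 marker lists in grey (y axis, number of genes in brackets). The medians are -0.13 for the 41 genes, -0.08 for other mitosis genes, 0.04 for lymphocyte, -0.16 for myeloid and -0.18 for medulla markers.

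The levels of the genes varied from pig to pig within groups. In a single pig, between 7 and 38 of the 41 genes lay below the mean of the pig's own group. Cross TN replicate 6 and Creole TN replicate 6 had 38 genes below it, and cross TN replicate 3 had 7. The median deviation from the group mean ran from -0.22 to 0.22 in TN and from -0.20 to 0.15 in HS pigs. Set against the TN mean of their breed, HS pigs had a median over the 41 genes of -0.33 to 0.05, and 32 (median over pigs) of the 41 genes lay below. A set of 24 mitosis genes was made of the mitotic kinases, checkpoint, spindle, centromere, condensin and marker roles, without the cyclins and CDK1. It ranged from -0.41 to 0.00 in HS pigs (median -0.15) and from -0.31 to 0.25 in TN pigs. The 8 genes of licensing, the fork and nucleotides ranged from -0.27 to 0.09 (median -0.09) and from -0.18 to 0.18. Since the genes share each pig's array and tissue piece, their number is not a number of independent observations.

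Slide 5 differed in these medians. All 4 TN pigs on slide 5 lay below their group mean, with median deviations of -0.22 (Creole TN replicate 6), -0.05 and -0.17 (cross TN replicates 5 and 6) and -0.13 (Large White TN replicate 6). On that slide the median difference between HS and TN was -0.03 and 26 of 41 genes were lower, against medians of -0.21, -0.12, -0.18 and -0.13 and 36, 36, 38 and 36 genes lower on slides 1 to 4. The part of the slide in these values was not tested.

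**Figure D4:**
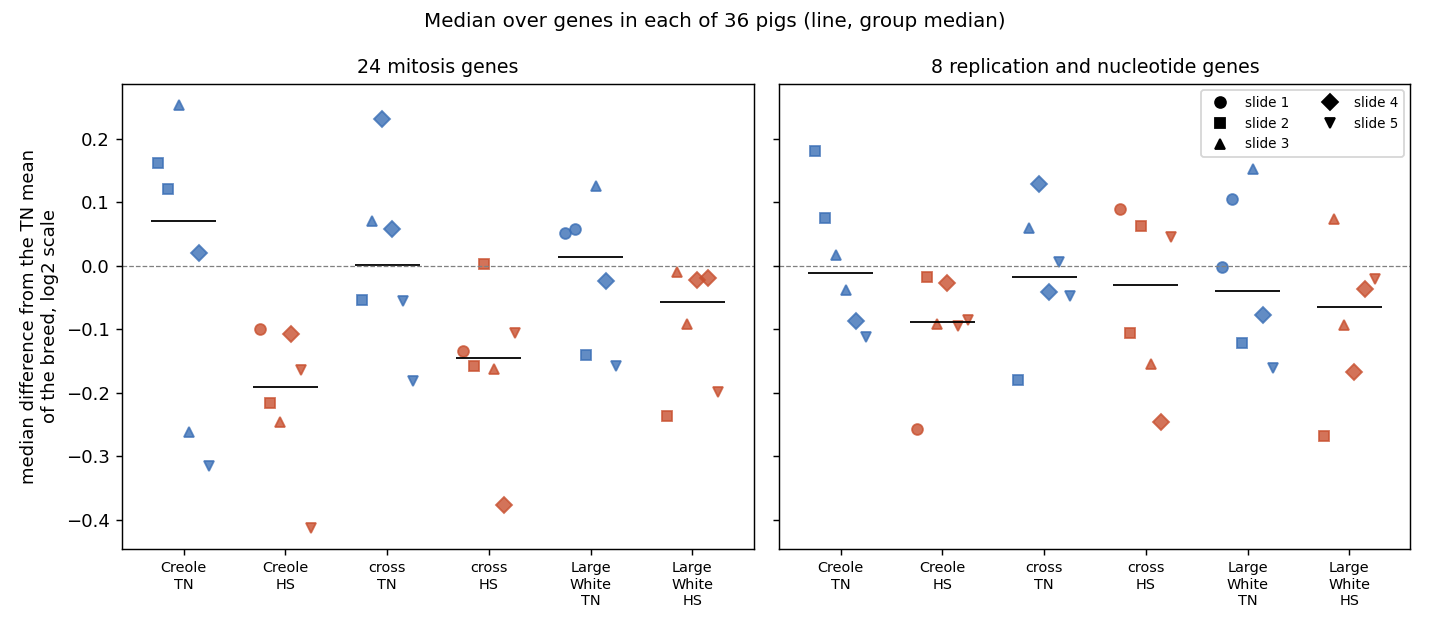
Median over 24 mitosis genes (left) and 8 replication and nucleotide genes (right) of the difference from the TN mean of the breed, on the log2 scale (y axis), in each pig of the 6 groups (x axis), TN in blue and HS in red, with the slide as the marker shape and the group median as a line. In the left panel the HS pigs lie between -0.41 and 0.00 and the TN pigs between -0.31 and 0.25.

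Within breeds, 6 pigs were set against 6. The median over the 41 genes was -0.17 in Creole, -0.10 in Large White and -0.16 in cross pigs, and 37, 35 and 31 genes were lower, against 50.8%, 50.8% and 49.4% of all probes. In the cross the median was -0.06, with 26 genes lower, without slide 4. In 28 genes the difference was below 0 in all 3 breeds, in 6 in 2 breeds and in 7 in 1 breed. At an unadjusted p under 0.05, 15 genes were lower in Creole pigs (2.47% of all probes), 3 in Large White pigs (3.20%) and 12 in the cross (6.13%), and 1, KIF11, was higher in Large White pigs (3.08%). No member passed the FDR within a breed by limma, where 0% of all probes passed in Creole pigs, 0.0109% in Large White pigs and 0% in the cross.

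TPX2 had the lowest unadjusted p in Creole pigs (-0.47, SE 0.14, limma adjusted p = 0.789), followed by BIRC5 (-0.38), and CENPF had the largest difference there (-0.50), next to TOP2A (-0.49) and UBE2C (-0.48). PBK had the largest difference in the cross (-0.57, SE 0.18, limma adjusted p = 0.179), followed by CDK1 (-0.48) and UBE2C (-0.47). In Large White pigs RRM2 was the lowest (-0.36), and RRM2, MCM6 and AURKA were the 3 lower genes at an unadjusted p under 0.05. TOP2A was at -0.36, CDK1 at -0.29 and TPX2 at -0.14. KIF11 was higher in Large White HS pigs, where it ran from 6.12 to 6.89 at TN and from 6.64 to 7.19 at HS, a difference of 0.39 (SE 0.13, limma adjusted p = 0.634), with 0.08 in Creole and -0.02 in cross pigs. The interaction of breed and temperature was not past the FDR for any of the 41 genes (lowest limma adjusted p = 0.982), 0 had an unadjusted p under 0.05, and 0% of all probes passed, with 4.21% at the unadjusted threshold. The lower counts in Large White pigs are therefore not shown to differ from those of the other breeds.

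**Figure D5:**
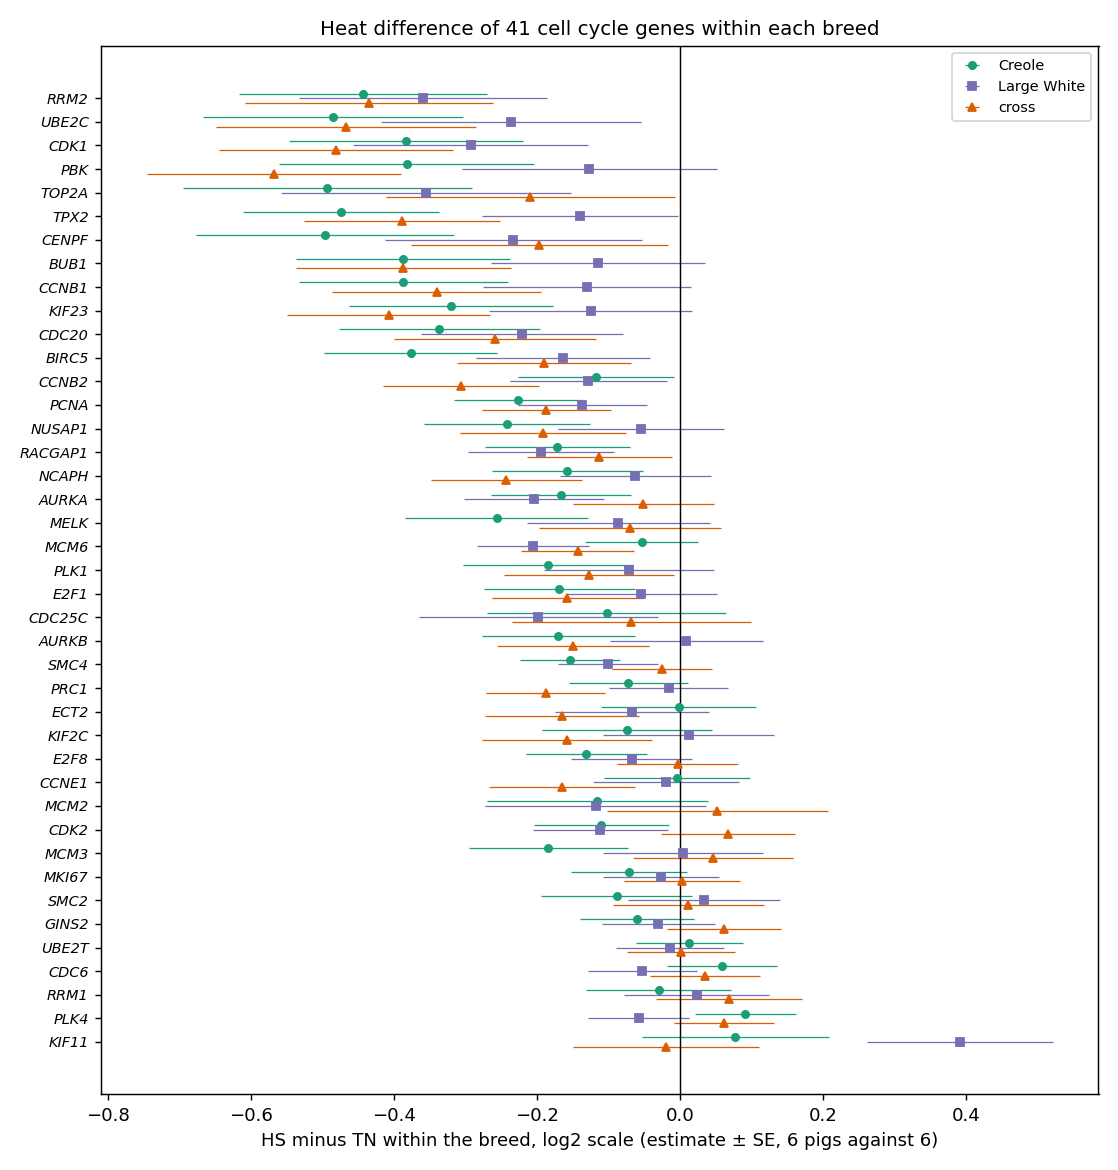
Difference between HS and TN pigs within Creole (circles), Large White (squares) and cross pigs (triangles) on the log2 scale with SE (x axis), for the 41 genes (y axis) in the order of their difference over all pigs. CDK1 and RRM2 lie below 0 in each breed, and KIF11 lies at 0.39 in Large White, 0.08 in Creole and -0.02 in cross pigs.

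The breeds themselves were compared over both temperatures. None of the 41 passed the FDR in the F test of the 3 breeds or between Large White and Creole by limma, where 10.4% and 11.3% of all probes passed. At an unadjusted p under 0.05 there were 5 genes (12.2%, against 24.5% of all probes) in the F test and 6 (14.6%, against 24.2%) between Large White and Creole. The median difference of Large White from Creole was 0.01, with 19 genes below 0 (50% of all probes). Its sign changed with the arrays used, since it was 0.06 with 10 genes below 0 without slide 2, -0.02 with 23 below 0 without slide 3, and ran from -0.01 to 0.03 with 1 pig left out. Among the probes used, the largest difference was that of MCM2 (0.22, SE 0.11, limma adjusted p = 0.190). Of the dimmer probes not used, 1 of SMC4 passed (0.12, limma adjusted p = 0.0493), and 1 of AURKB differed by 0.43 (limma adjusted p = 0.0561) where the brighter AURKB probe gave 0.15. The lowest p was that of GINS2, which ran from 8.16 to 8.71 over Creole pigs and from 8.39 to 8.86 over Large White pigs, a difference of 0.16 (SE 0.06, limma adjusted p = 0.0534). CCNE1 (0.19), KIF2C (0.20), UBE2T (-0.14) and RACGAP1 (-0.15) followed in size or p, and KIF23 had the lowest value (-0.16). Markers of other tissue moved with breed, since 5 of 6 adipocyte markers passed the FDR between Large White and Creole (4 lower and LPL higher, median -0.75), as did 3 of 6 medulla markers (all 3 higher, median 0.31) and 3 of 9 myeloid markers (2 higher and CSF1R lower, median 0.29), and their part in these values was not tested.

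MELK, a kinase of embryonic and dividing cells, stood at the edge of the F test (limma adjusted p = 0.0503). It ran from 5.82 to 6.80 (median 6.16) in cross TN and from 5.91 to 6.24 (median 6.16) in cross HS pigs. In Creole pigs it ran from 6.31 to 6.79 (median 6.61) and from 6.10 to 6.52 (median 6.34), and in Large White pigs from 6.12 to 6.98 (median 6.49) and from 6.07 to 6.55 (median 6.41). The cross was the lowest at both temperatures, with overlap, and differed from the mean of both parental breeds by -0.27 (SE 0.08, limma adjusted p = 0.114). MELK passed the F test in 7 of the alternative settings, among them the authors' values, the slide as a block and the stricter filter, in which 9.26% to 13.3% of all probes passed. Over the 41 genes the cross lay below the parental mean in 33 (50.7% of all probes), with a median of -0.05 (-0.08 to -0.03 with 1 pig left out), and 2 were lower at an unadjusted p under 0.05 (MELK, and AURKA at -0.14), against 5.67% of all probes, while 0 passed the FDR by limma, against 0.409%. CDC25C (0.11) and KIF11 (0.11) had the largest values above 0.

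Of the 97 genes tested in the 4 other cell cycle lists, 5 (5.15%) passed the FDR between Large White and Creole, against 11.3% of all probes. CEP55 (-0.36, limma adjusted p = 6.85e-05) and SPC25 (-0.34, limma adjusted p = 0.0193), both of mitosis, were lower in Large White, and TACC3 (0.25, limma adjusted p = 0.0314), a spindle protein, was higher. The licensing inhibitor geminin (GMNN, 0.20, limma adjusted p = 0.0184) and the clamp loader subunit RFC1 (0.18, limma adjusted p = 0.0437) were higher as well. Their differences between HS and TN lay between -0.08 and 0.15, and none of these 5 passed the FDR for temperature.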

How the data were processed

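Total RNA from a portion of the adrenal tissue of each of 36 pigs was hybridised to single-colour Agilent arrays of 60305 probes, and the submitters' notes name Feature Extraction 10.10.1.1. Each probe's median intensity in the deposited scanner output was quantile normalized here and log2 transformed, as in the study's methods. The authors' own table holds normalized log2 values of 45348 probes and served as an alternative. The number of arrays limits the precision. Probes flagged well above background on 9 or more of either temperature's 18 arrays were kept (45943, of which 89 had a missing spot on some array, left out of that probe's fit). Under R 4.3.3, linear models were fitted by limma 3.58.1 with moderated variances, using statmod 1.5.0 for random blocks, and p-values were adjusted over all kept probes by Benjamini-Hochberg at an FDR of 0.05. Temperature and breed entered an additive model, and effects within breeds and the interaction a model of the 6 groups. Nothing in the labels shows littermates or pen-mates, and each array is 1 pig. No column of other samples was present. The steps were tested on simulated data.

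The genes and lists were chosen with earlier results of these data known. Genes named were the best-known members of each role, those past the threshold, those with the lowest p or largest difference, those dim on some arrays and those with a pig far from its group. Positions are those of RefSeq's Sscrofa11.1 annotation. Alternatives covered the scaling, background, filter, slide, array weights, choice of probe and each pig left out.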

Additional observations from a re-analysis of the deposited data

Results flagged for a closer look

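In 15 of 246 gene and group combinations, 1 pig of the 6 lay far from the other 5 by Dixon's test (critical value 0.625), where chance gives 12.3. The first 6 were the lowest pig of their group. TOP2A was 8.498 in cross TN replicate 6 (9.18 to 9.54 in the other pigs) and CENPF 7.68 in the same pig (8.16 to 8.44). CCNB1 was 8.35 in Creole HS replicate 6 (8.70 to 8.88) and PCNA 8.24 in Creole HS replicate 1 (8.77 to 8.95), where CCNE1 was also low at 6.002 (6.52 to 6.72). MCM3 was 6.58 in cross HS replicate 5 (6.78 to 6.89).

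In Large White HS pigs the pig apart was the highest one. MCM6 was 10.24 (9.86 to 9.99) and CDK2 9.96 (9.66 to 9.75) in replicate 2, AURKA 9.13 (8.69 to 8.85) in replicate 5 and SMC2 7.74 (7.49 to 7.57) in replicate 1. In Large White TN pigs, BUB1 was 7.27 (6.87 to 6.99) and RACGAP1 6.23 (6.52 to 6.63) in replicate 5, and NCAPH 7.26 (6.86 to 6.96) and E2F8 6.33 (5.95 to 6.04) in replicate 4. E2F8 was 6.29 (5.87 to 6.02) in Creole TN replicate 1. All values are normalized log2 intensities.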

How the results depend on the processing

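Over the alternatives no gene changed the sign of a called difference, and the median over the 41 genes between HS and TN stayed between -0.16 and -0.12 (-0.14 to -0.11 with 1 pig left out). The number of the 41 past the FDR between HS and TN was 3 and became 1 with the processed signal at its 75th percentile, 4 with median centring, the filter on all arrays, array weights or the mean over probes, 7 with the slide as a fixed and 5 with the slide as a random block, 0 without slide 1, 2, 3 or 4, 5 without slide 5, and 5 when any probe of a gene counted, the last chosen after seeing the data. With 1 pig left out it ran from 0 to 7. The share of all probes moved too, from 0.886% to 0.66% with median centring, 1.17% with the filter on all arrays, 1.64% with array weights, 0.897% with the mean over probes and 1.94% with the fixed block. It was 3 of 42 with probes named by a gene number added, chosen after seeing the data. Without the 2 brightest arrays, also chosen after seeing the data, it was 2. In the F test of the 3 breeds the number was 0 and became 1 with the authors' values, median centring, the filter on all arrays, the slide as a random block, array weights, without slide 1 and without Creole HS replicate 6, and 2 with slides as fixed blocks. In those settings 7.96% to 13.3% of all probes passed, against 10.4% in the main fit. Between Large White and Creole the number was 0 and became 1 with normexp, median centring, array weights, without slide 2, 4 or 5 and without Creole HS replicate 6, and 2 with either slide block. Of all probes, 7.27% to 13.7% passed in those settings, against 11.3% in the main fit. The number of genes was 1 (SMC4) when any probe counted, also chosen after seeing the data. In the cross alone it became 1 without slide 5 (PBK), where 0.503% of all probes passed, against 0% in the main fit. With 1 pig left out, the F test, Large White against Creole, and the cross against its parental mean each ran from 0 to 1. In the other cell cycle lists the number past the FDR between HS and TN was 1 and became 2 with median centring, the filter on all arrays or without Creole HS replicate 6, 5 with the slide as a fixed block or array weights, 4 with the random block, 3 with the mean over probes and 0 without slide 2, 3 or 4, and ran from 1 to 4 with 1 pig left out. Between Large White and Creole it was 5 and became 2 without slide 2 or 5 and 1 without slide 3, and ran from 3 to 6 with 1 pig left out. The share of all probes was 11.3% in the main fit and 7.27%, 9.24% and 5.57% without slides 2, 5 and 3. The cause of these changes was not tested, though a fit without a slide has 4 or 8 fewer arrays. A median for the F test has no sign and was not run. No paired analysis was possible because the labels carry no replicate numbers or litters. Low signal limits what can be said of the genes dim on some arrays (RRM1, PRC1, KIF2C and E2F8) and of MKI67.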
